A study of Mus musculus with 2 samples.

Results

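Zymogen granules are the storage vesicles in which pancreatic acinar cells keep digestive enzymes until a meal, and 10 genes of their membrane, content and release were followed here on 2 arrays of mouse pancreas RNA. The genes were chosen by name, as granule proteins (Gp2, Zg16, Cuzd1), Rab GTPases (Rab3d, Rab27b) and proteins of membrane fusion (Vamp2, Vamp8, Stx3, Snap23, Stxbp2), and every probe set whose platform annotation gave 1 of these symbols was taken. This gave 26 probe sets for the 10 genes, out of 18193 genes that the arrays named. One array held a pool of whole-pancreas RNA from male offspring, 10 weeks old, of C57BL/6J dams given a threonine-deficient diet between embryonic days 12.5 and 14.5. The other held the like pool from offspring of dams on control diet in those days. Offspring of both groups were weaned at 3 weeks onto control diet and received no treatment of their own after birth. Each group was 1 pool on 1 array. The sources used here do not say how many animals were pooled, so the animals' own spread cannot be seen. No value has a replicate, and every difference is one between 2 pools.

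In acinar cells, enzymes are packed into granules at the Golgi, and a rise of calcium after a secretagogue makes the granules fuse with the apical membrane and with each other. Rab GTPases mark the granule and recruit the factors that bring it to the membrane. SNARE proteins on granule and target membrane then zip together and drive fusion, with Munc18 proteins binding the syntaxins. In rodent acinar cells VAMP2, VAMP8, syntaxin 3 and SNAP-23 are the SNAREs best known for this step.

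No gene of the 10 differed 2-fold between the pools. Vamp2 stood farthest apart, with 1206 signal units in the threonine-deficient pool against 669 in the control pool, and Stx3 came next, with 1382 in the threonine-deficient pool against 961 in the control pool. Rab27b, Stxbp2 and Snap23 were lower in the threonine-deficient pool in each of their probe sets that had a ratio. Zg16, Rab3d and Stx3 were higher in each of theirs, and several of these ratios lay near 0. Over all genes with exactly 2 probe sets bright enough to be read on both arrays, 52.1% had ratios of 1 sign. That share was 24.3% with 3 such probe sets and 21.3% with 4. The granule proteins Gp2, Zg16 and Cuzd1, which give some of the brightest signals of the arrays, stayed within 1.09-fold. With each gene read by its probe set of highest mean log2 signal, 4 genes were higher and 6 lower in the threonine-deficient pool, and the median log2 ratio of the threonine-deficient over the control pool was −0.05. Over the 10758 genes with a ratio, the median was 0.00, 50.1% were higher and 2.16% were at least 2-fold apart. Of the 10 genes, 1 passed 1.5-fold, against a background of 12.6%.

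**Figure D1:**
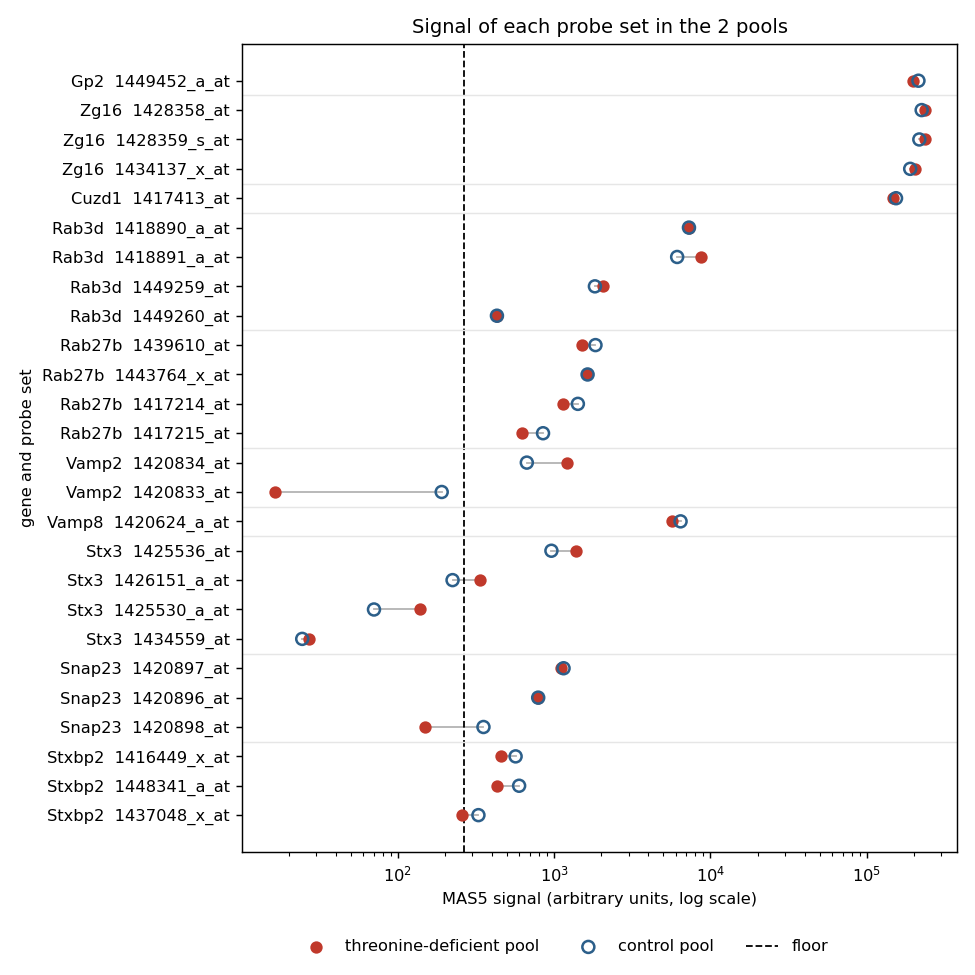
MAS5 signal (horizontal, log scale) of the 26 probe sets of the 10 genes (vertical) in the threonine-deficient pool (filled) and the control pool (open), with the floor of 264.9 as a dashed line. Points of a pair lie close together for Gp2, Zg16 and Cuzd1 and farther apart for Vamp2 and Stx3, and signals of different probe sets are not comparable as amounts of mRNA.

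Values were linear signals as the authors deposited them, made with MAS5, which gives 1 signal per probe set and brings every array to a common mean, so ratios are relative to the rest of the array. Signals under a floor of 264.9 were raised to it, and a ratio with 1 signal at the floor is a bound. Of the 26 probe sets, 20 lay above the floor on both arrays, 3 gave a bound and 3 lay under it on both and have no ratio. In place of a replicate error, the local spread is the scaled median absolute deviation of log2 ratios over the 500 probe sets nearest in signal. It was 0.11 for the brightest member probe sets and between 0.48 and 0.52 for the 3 dimmest that had one. As another gauge of error, the log2 ratios of 24 probe sets for polyadenylated spike-in transcripts lay between −0.39 and 0.53, and those of 14 for hybridisation spike-ins between −0.32 and 0.06. Of the brightest probe sets of the 10 genes, that of Vamp2 alone lay outside the first range.

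Markers of acinar cells were present, and the granule genes were read in a tissue made mostly of them. In whole tissue, fewer cells of a type and less RNA per cell cannot be told apart. Summed signals below are over all markers of a list that the arrays named, those under the floor included. Of 6 acinar markers with a ratio, 5 were higher, and the sum was 554710 in the threonine-deficient and 511518 in the control pool. Islet markers were lower in 8 of 8, with a sum of 143616 in the threonine-deficient and 174817 in the control pool. Adipocyte markers were lower in 5 of 5, with a sum of 13880 in the threonine-deficient and 31224 in the control pool. B and plasma cell markers were lower in 3 of 5, with a sum of 5237 in the threonine-deficient and 11012 in the control pool, and Ighm (−1.90 in its brightest probe set, 0.57 in another) and Mzb1 (−1.12) were at least 2-fold lower. The islet and fat cell lists were thus lower in each gene with a ratio, and that of B and plasma cells in part. Of the islet markers, Ppy (−0.02) and Chgb (−0.23) lay within their local spread. The islet marker Pcsk1 and the adipocyte marker Cidec were bounds from the floor in the threonine-deficient pool. Endothelial markers were higher in 5 of 5, with 2711 in the threonine-deficient and 1956 in the control pool. These were dim, Pecam1 alone passed its local spread, and Kdr was a bound from the floor in the control pool. Duct markers were higher in 3 of 4, with 11527 in the threonine-deficient and 10619 in the control pool. That sum turned with Car2 (log2 ratio 2.14). Without it, a choice made after its value was seen, the sums were 9986 in the threonine-deficient and 10270.5 in the control pool. Muc1 made up most of these, with 8080 in the threonine-deficient and 8791 in the control pool. Krt19 and Sox9, both dimmer, were higher, at 0.30 and 0.89. Macrophage markers were higher in 5 of 6, with 7118 in the threonine-deficient and 6557 in the control pool. Of the higher ones, Cd68, Cd163 and Mrc1 lay within their local spread. Csf1r had 0.51 in its brightest probe set and 0.25 and 0.10 in others. Of the neural markers, Snap25, Tubb3, Elavl4, S100b and Uchl1 lay under the floor on both arrays, and Syt1 alone had a ratio, 0.17. The part of these cell types in the values below was not tested.

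Promoter windows from RefSeq (GRCm38.p6, 250 bases before to 50 after a listed start) were matched for 7 of the 10 genes, with none used here for Zg16, Rab27b and Vamp2. Those of Gp2, Cuzd1, Rab3d and Stx3 are shown because they set a granule protein pair beside a Rab and a syntaxin of the release step. They read 5′ to 3′ on the gene's strand, and all 4 genes lie on the minus strand. Capitals mark the TATA box letters TATAAA, the CAAT box letters CCAAT and the GC box letters GGGCGG, with their reverse complements. Both strands were searched, and no matches overlapped in these windows.
Gp2 (chr7:119459223-119459522): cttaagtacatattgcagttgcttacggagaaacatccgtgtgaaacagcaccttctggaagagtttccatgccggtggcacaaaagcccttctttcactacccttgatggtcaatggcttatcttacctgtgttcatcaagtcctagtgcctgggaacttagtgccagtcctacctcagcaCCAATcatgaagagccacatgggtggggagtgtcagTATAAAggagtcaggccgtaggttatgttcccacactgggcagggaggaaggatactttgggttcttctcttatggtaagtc
Cuzd1 (chr7:131322243-131322542): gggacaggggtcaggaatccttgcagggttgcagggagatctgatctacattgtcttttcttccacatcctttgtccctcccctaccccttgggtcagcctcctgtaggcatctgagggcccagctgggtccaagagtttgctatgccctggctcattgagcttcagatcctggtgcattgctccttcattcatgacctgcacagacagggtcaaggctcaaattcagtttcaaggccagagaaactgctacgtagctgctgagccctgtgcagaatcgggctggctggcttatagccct
Rab3d (chr9:21918134-21918433): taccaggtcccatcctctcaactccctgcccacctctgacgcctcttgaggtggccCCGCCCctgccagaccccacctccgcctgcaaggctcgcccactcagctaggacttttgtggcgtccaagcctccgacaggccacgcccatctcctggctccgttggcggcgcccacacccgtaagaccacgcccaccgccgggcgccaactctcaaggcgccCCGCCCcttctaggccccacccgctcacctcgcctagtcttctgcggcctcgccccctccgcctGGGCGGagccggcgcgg
Stx3 (chr19:11819354-11819653): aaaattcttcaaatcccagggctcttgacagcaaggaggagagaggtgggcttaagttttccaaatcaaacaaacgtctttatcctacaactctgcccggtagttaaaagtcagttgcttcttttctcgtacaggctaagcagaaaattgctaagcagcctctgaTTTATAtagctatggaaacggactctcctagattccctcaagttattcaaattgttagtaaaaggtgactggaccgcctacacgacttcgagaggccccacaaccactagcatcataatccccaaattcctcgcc
Gp2 had TATAAA 32 bases before the start and CCAAT farther upstream. Rab3d had 3 matches of GGGCGG, and Stx3 had TATAAA on the opposite strand only. Over 27025 windows, 14.2% held TATAAA, 37.9% CCAAT and 35.9% GGGCGG. The windows of Cuzd1 and Gp2 held 2 and 4 CpG dinucleotides, and those of 17 acinar digestive enzymes a median of 2. Those of 15 other granule membrane and content proteins held a median of 6, from 1 to 48. Vamp8 had 5 and Stx3 8, while Stxbp2, Snap23 and Rab3d had 22, 25 and 26, beside a median of 7 over all windows. A match describes these letters and does not show that a factor binds there.

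Among the granule proteins, Gp2, the major glycoprotein of the granule membrane, to which a lipid anchor ties it, had a signal of 197828 in the threonine-deficient and 213990 in the control pool. Its log2 ratio of −0.11 was as large as the local spread of 0.11. Cuzd1, a membrane protein of the granule with CUB and zona pellucida domains, had 147942 in the threonine-deficient pool against 153814 in the control pool. Both genes were read by 1 probe set, so neither has a second reading, and their ratios of −0.11 and −0.06 did not pass the local spread.

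Zg16, a lectin thought to help bind the condensed enzymes to the granule membrane, was read by 3 probe sets. In the threonine-deficient pool they had 235067, 235470 and 202452 signal units, against 224394, 216782 and 189507 in the control pool. The log2 ratios of 0.07, 0.12 and 0.10 were all positive and lay within 0.05 of each other. Of the 742 genes with exactly 3 probe sets above the floor on both arrays, 24.3% had ratios of 1 sign, and their median range was 0.53. Those genes were of any signal above the floor, while Zg16 is bright, with a local spread of 0.11, so the ranges are not like for like. The readings of 0.07 and 0.12 are annotated to the same sequence record. Those of 0.12 and 0.10 have the suffixes _s_at and _x_at, which mark possible sharing, so the readings are not independent. All 5 probe sets of Gp2, Zg16 and Cuzd1 lay between 53.6% and 85.3% of the brightest signal of their array, a range in which the response of the scanner was not tested.

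The other granule membrane and content genes were centred near no difference. Of 22 listed, 21 had a ratio, 10 higher and 11 lower, with a median log2 ratio of 0.00 and none at least 2-fold apart. Sycn, or syncollin, a protein on the inner face of the granule membrane, had 201055 in the threonine-deficient and 188994 in the control pool, and its log2 ratios were 0.09 and 0.13 in its 2 probe sets. Dmbt1, a secreted scavenger-receptor protein of the granule, had 0.02, and Muc1, an apical mucin, −0.12. By size of ratio, the genes named were Slc17a9, the vesicular nucleotide transporter (−0.53), Cd59a, a complement inhibitor with a lipid anchor (−0.41), and the secretory carrier membrane proteins Scamp3 (0.32) and Scamp5 (−0.20). Slc17a9 had 0.25 and Cd59a 0.02 in their other probe sets. Sycn, Dmbt1 and Muc1 were named after their values were seen.

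The cargo of the granules is the set of digestive enzymes. The 14 enzyme genes on the arrays had a median log2 ratio of 0.12, with 13 higher and 1 lower. Amy1, an amylase, had 16214 in the threonine-deficient against 12028 in the control pool, a ratio of 0.43, and the elastase Cela2a and the protease Ctrl had 0.18 and 0.16. Zg16, at 0.07, lay on the side of the enzymes, while Gp2 and Cuzd1, at −0.11 and −0.06, lay on the side of the lower enzyme Ctrc, at −0.16. No test of a difference between these groups was possible with 1 array a pool.

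Among the Rab GTPases, Rab27b, a granule GTPase needed for efficient release in many secretory cells, was lower in the threonine-deficient pool in 4 of 4 probe sets. The signals were 1497, 1611, 1146 and 619 in the threonine-deficient pool and 1839, 1637, 1419 and 849 in the control pool. The log2 ratios were −0.30, −0.02, −0.31 and −0.46, and 3 of the 4 passed the local spread, which lay between 0.26 and 0.37. The readings of −0.31 and −0.46 are annotated to the same sequence record, so they are not independent. The ratio nearest 0 came from a probe set with the suffix _x_at, which marks probes that may match other transcripts. Of 239 genes with exactly 4 probe sets above the floor on both arrays, 21.3% had ratios of 1 sign.

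Rab3d, the Rab3 form found on zymogen granules, was also read by 4 probe sets, and they did not give 1 value. Of its 2 brightest probe sets, 1 had 8702 signal units in the threonine-deficient and 6123 in the control pool, a log2 ratio of 0.51, which is 3.12 times its local spread of 0.16. The other, of almost the same mean signal, had 7341 in the threonine-deficient against 7286 in the control pool, a ratio of 0.01. The dimmer readings gave 0.18 (2066 in the threonine-deficient and 1823 in the control pool) and 0.01 (433 in the threonine-deficient and 431 in the control pool). All 4 are annotated to the same sequence record. So 1 of 4 readings passed its local spread, and the gene's ratio was 0.01 or 0.51 depending on which of 2 like probe sets was used.

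The remaining Rab genes and Rab effectors had a median log2 ratio of 0.02 over 27 genes with a ratio, 15 higher and 12 lower. Exph5, also called Slac2-b, an effector that binds Rab27, was the only one at least 2-fold apart, with 275 signal units in the threonine-deficient pool against 786 in the control pool. Its log2 ratio was −1.52 in a single probe set, and the lower signal stood just above the floor. Myrip, another Rab27 effector, had 1132 in the threonine-deficient and 1709 in the control pool, a ratio of −0.59 against a local spread of 0.29. Rab3gap2, a subunit of the GTPase-activating complex for Rab3, had −0.86, and Rab3il1, an exchange factor for Rab3A, 0.58 in its brightest probe set and −0.11 in another.

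Readings of the Rab27 effectors went both ways. Sytl1 and Sytl4, synaptotagmin-like proteins that tie Rab27 to the membrane, had 0.19 and 0.29, each within its local spread of 0.33 and 0.55. Mlph had a bound of 0.33 and Unc13d, or Munc13-4, one of 0.39, both from the floor in the control pool. Rph3al, another Rab effector of the list, had 0.51 in its brighter probe set, past its local spread of 0.29. Its other probe set had a bound of −0.64, from the floor in the threonine-deficient pool. Rab27a, the close relative of Rab27b, had −0.13 in its brightest probe set and a bound of 0.38 in another. These genes other than Exph5, Myrip, Rab3gap2 and Rab3il1 were named after their values were seen.

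**Figure D2:**
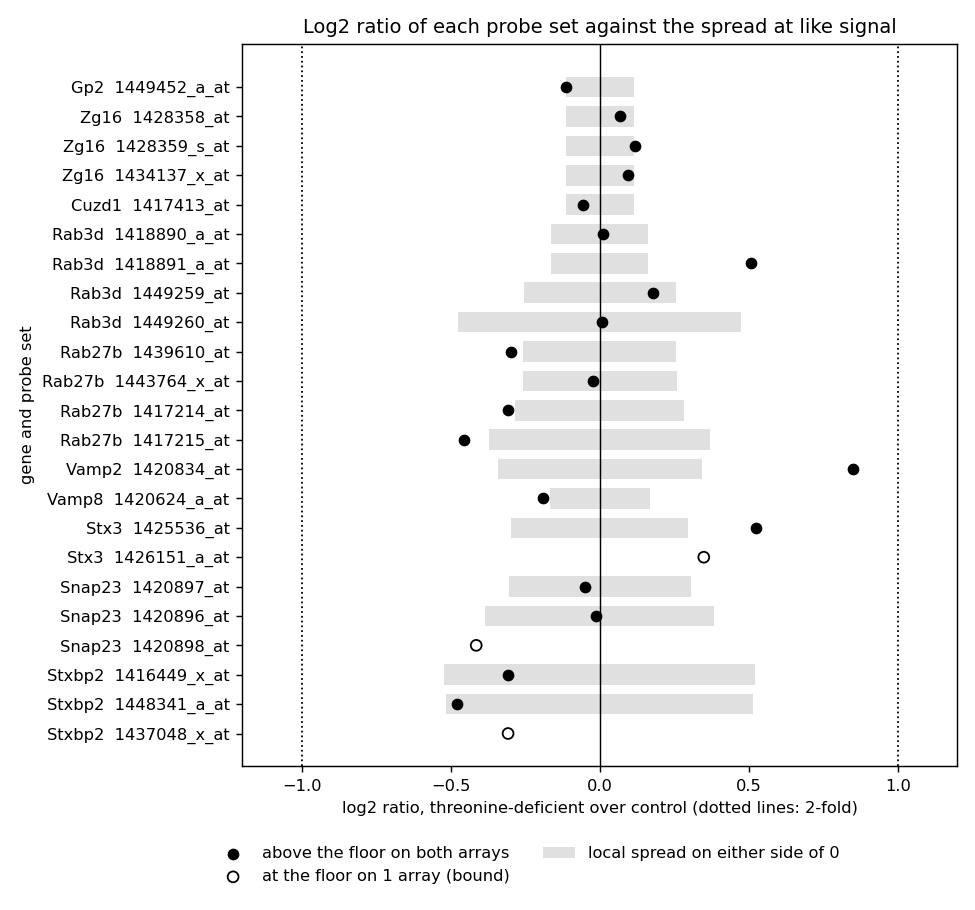
Log2 ratio of the threonine-deficient over the control pool (horizontal) for the 23 member probe sets with a ratio (vertical), with the local spread drawn to either side of 0 and dotted lines at 2-fold. Open points are bounds from the floor, and the points of Vamp2 and of 1 probe set of Rab3d lie beyond 2 local spreads.

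The SNAREs of the granule side are Vamp2 and Vamp8. Vamp2, the synaptobrevin that in rodent acinar cells serves calcium-driven fusion with the apical membrane, had a log2 ratio of 0.85, or 1.80-fold, in its brighter probe set, 2.48 times the local spread of 0.34. Its other probe set lay under the floor on both arrays, with 16.3 in the threonine-deficient and 190.9 in the control pool, so the ratio rests on 1 reading. Vamp8, or endobrevin, the other granule VAMP, had 5644 in the threonine-deficient pool against 6438 in the control pool. The ratio of −0.19 in its only probe set was slightly past the local spread of 0.17. The 2 granule VAMPs thus had ratios of opposite sign.

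On the target side, Stx3, the syntaxin found on granules and the apical membrane, was higher in the threonine-deficient pool in both of its probe sets with a ratio. The brighter had a log2 ratio of 0.52, with a local spread of 0.30. The dimmer had 337 in the threonine-deficient pool and 224 in the control pool, where it was at the floor, so that it was at least 1.27-fold higher. The remaining pair of probe sets lay under the floor on both arrays, at 139 and 27.0 in the threonine-deficient pool and 70.4 and 24.5 in the control pool. Snap23, the SNAP-25 relative of non-neuronal cells that pairs with syntaxins, had 1109 and 784 in the threonine-deficient pool against 1149 and 791 in the control pool. Those ratios of −0.05 and −0.01 lay well within the local spread. The other, dim probe set of Snap23 had 149 in the threonine-deficient pool, under the floor, and 353 in the control pool, at least 1.33-fold lower.

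Stxbp2, or Munc18-2, which binds syntaxin 3 and is needed for regulated release in several epithelial and blood cells, was lower in the threonine-deficient pool in 3 of 3 probe sets. The first 2 had 458 and 428 signal units in the threonine-deficient pool against 567 and 597 in the control pool, log2 ratios of −0.31 and −0.48. At this low signal the local spread was 0.52 and 0.51, so neither ratio passed it. The dimmest had 256 in the threonine-deficient pool, just under the floor, and 328 in the control pool, a bound of −0.31. The first and the dimmest have the suffix _x_at, which marks probes that may match other transcripts, and the reading of −0.48 has _a_at. The first 2 are annotated to the same sequence record, so the readings are not independent.

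Across the 20 member probe sets above the floor on both arrays, 9 were higher and 11 lower, beside 48% higher over all such probe sets. The number beyond 2 local spreads was 2 (Vamp2 and 1 probe set of Rab3d), or 2 of 20 against a background of 5.89%. Another count, of those beyond 1 local spread, was 8 of 20 against 32.8%. All 5 genes with at least 2 probe sets above the floor on both arrays (Zg16, Rab3d, Rab27b, Snap23, Stxbp2) had ratios of 1 sign. The share over all genes was 52.1% with exactly 2 such probe sets, 24.3% with 3 and 21.3% with 4. Some of the member ratios that shared a sign lay near 0, such as 0.01 in Rab3d and −0.01 in Snap23.

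The other SNARE genes had a median log2 ratio of −0.10 over 26 with a ratio, 11 higher and 15 lower, with none at least 2-fold apart in its brightest probe set. Stx6, a syntaxin of the trans-Golgi network and endosomes, had −0.95 in its brightest probe set, with 651 in the threonine-deficient pool against 1259 in the control pool, but 0.15 and −0.34 in others. Vamp5 had 0.53, and Stx1a, the syntaxin of neurons and endocrine cells, 0.51 in a probe set with the suffix _x_at. The other probe set of Stx1a lay under the floor on both arrays, with 83.1 in the threonine-deficient and 228 in the control pool. Snap29, a SNAP-25 relative of inner membranes, had −0.49 in its brightest probe set, with 0.40 and −0.38 in its others. Vamp7, a VAMP of late endosomes and lysosomes, had −0.45 and −0.55 in its 2 probe sets, 1546 and 1216 in the threonine-deficient pool against 2109 and 1782 in the control pool. Stx2 and Stx4a, the plasma membrane syntaxins, had −0.11 and −0.40. Vamp7, Stx2 and Stx4a were named after their values were seen.

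Regulators of the SNAREs, calcium sensors and tethers had a median of 0.05 over 26 genes with a ratio, 14 higher and 12 lower, and none 2-fold apart in its brightest probe set. Nsf, the ATPase that takes spent SNARE complexes apart, had 1160 in the threonine-deficient and 797 in the control pool (0.54), while another probe set had 537 in the threonine-deficient and 1106 in the control pool (−1.04). Cplx1, a complexin, which clamps SNARE complexes, had −0.84 and −1.72, with a bound of 0.48 in its remaining probe set. Cadps2, a priming factor of dense-core vesicles, had 0.51, and Exoc2, a subunit of the exocyst tether, 0.41. Of the synaptotagmins, Syt2, Syt4, Syt6, Syt8 and Syt9 lay under the floor on both arrays.

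Vamp2 also belongs to the granules of islet cells, whose other genes were mostly lower. Of 13 endocrine granule genes with a ratio, 10 were lower and 3 higher, with a median of −0.38. The higher genes were Syp, or synaptophysin, with 518 in the threonine-deficient and 286 in the control pool (0.86), Stx1a (0.51) and Scg5 (0.08). For Stx1a this is the _x_at reading, since its other probe set lay under the floor. Among the lower genes, the zinc transporter gene Slc30a8 had −0.57 and the granule membrane gene Ptprn −0.56. Snap25, the partner of syntaxin 1A in neurons and islets, lay under the floor on both arrays. Which cells gave the Vamp2 signal was not tested.

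Transcription factors of acinar cells gave mixed values. Bhlha15, or MIST1, which is known to drive Rab3d in mouse acinar cells, had 14448 in the threonine-deficient pool against 11831 in the control pool, a log2 ratio of 0.29, and 0.35 in its other probe set. Ptf1a, the master factor of acinar genes, had −0.27, and Gata4 had 0.42. Nr5a2 had 0.12 in its brightest probe set and −0.05 and −0.20 in others. Of the 6 listed, 4 were higher and 2 lower.

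**Figure D3:**
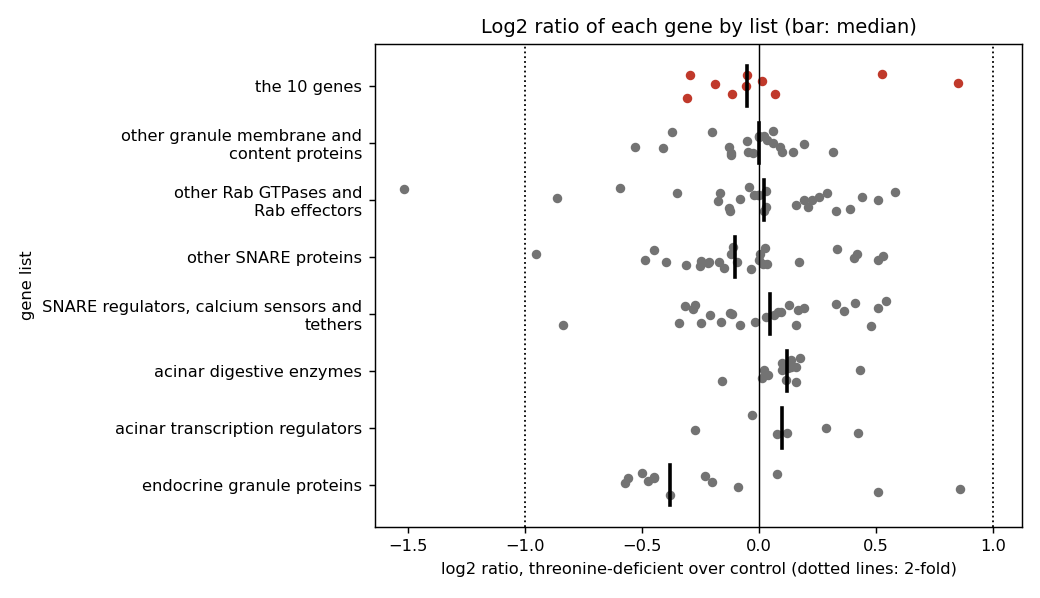
Log2 ratio of the threonine-deficient over the control pool (horizontal) for the 10 genes and for the 7 other lists (vertical), 1 point a gene with a ratio, with the list median as a bar and dotted lines at 2-fold. The medians are −0.05 for the 10 genes, 0.12 for the digestive enzymes and −0.38, a bound, for the endocrine granule genes. Points include bounds from the floor, and Exph5 is the point at −1.52.

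**Figure D4:**
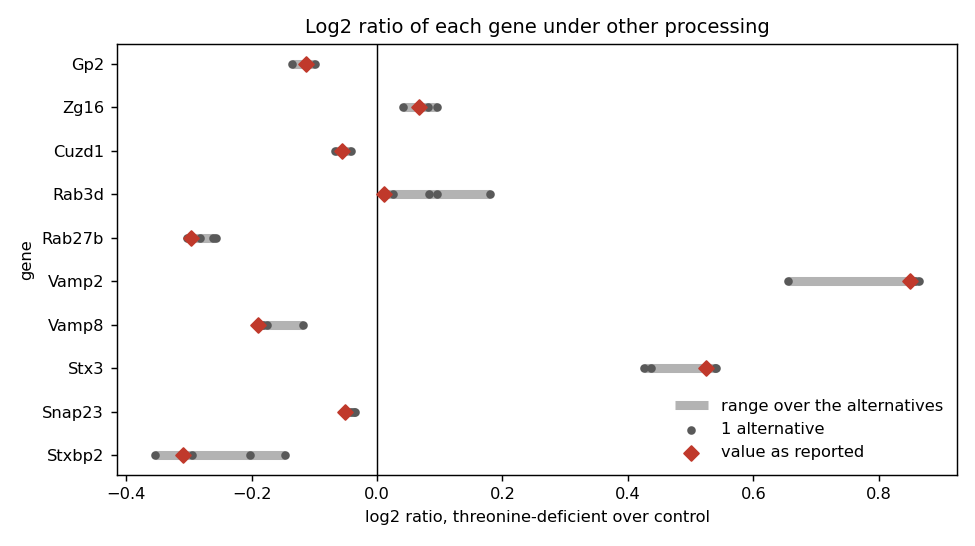
Log2 ratio of the threonine-deficient over the control pool (horizontal) of each of the 10 genes (vertical) as reported (diamond) and under each alternative (points, with their range as a bar). Each gene kept its sign, which the other floors and the pseudocount could not reverse. Rab3d, from 0.01 to 0.18, moved the most against its local spread.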

How the data were processed

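RNA from 2 pools of whole mouse pancreas had been measured on Affymetrix mouse expression arrays. The deposited values are a linear intensity per probe set that the authors made with MAS5, per the submitters' processing notes. The sources used here name no version of it, and no detection calls were used. The scaling of each array hides any difference in the amount of mRNA.

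Of 45101 probe sets, 64 were controls. Probe sets with exactly 1 symbol (34945) were named through the gene identifier against RefSeq of GRCm38.p6, which matched 34741. Log2 ratios of the threonine-deficient over the control pool were computed after signals were raised to a floor, the 60th percentile of whichever array had the higher one. Each gene was read by its probe set of highest mean log2 signal. The fold for a call was 2, with no test, since there was 1 array per group, and that number limits the precision. The local spread used 500 neighbours and a factor of 1.4826. In each of the 7 other lists, the 4 genes of largest absolute ratio above the floor on both arrays were named, and any at least 2-fold apart. The members and the lists were chosen with earlier results of these data known. The alternatives were 2 other scalings, 3 other floors, a pseudocount, the median over probe sets, and leaving out probe sets ending in _s_at, _x_at or _a_at. The ratio and local spread steps were tested on signals simulated from probe sets above the floor. That simulation used a constant spread, unlike the data, and the other steps were not tested in this way. Python 3.11.15, pandas 2.3.3, numpy 2.4.6 and statsmodels 0.14.6 were used.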

Additional observations from a re-analysis of the deposited data

How the results depend on the processing

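The number of the 10 genes at least 2-fold apart was 0 and the number with a positive log2 ratio was 4 under each of the 8 alternatives. Only 7 genes had a value, though, once probe sets ending in _s_at, _x_at or _a_at were left out. The median log2 ratio was −0.05 as reported, stayed between −0.05 and −0.04 under 7 alternatives, and was 0.07 without those probe sets, where Gp2, Vamp8 and Stxbp2, all lower in the threonine-deficient pool, have no value and Rab3d is read by another probe set. Of 77 values of single genes under alternatives, 76 moved by less than the local spread and none changed sign. The exception was Rab3d, at 0.18 without suffixed probe sets, because another of its probe sets was then read. Much of this stability was fixed in advance, since all 10 genes were read above the floor on both arrays. No floor and the lower floor thus returned the same values, and the higher floor changed Stxbp2 alone. Neither the floors nor the pseudocount could reverse a sign. Vamp2 ranged from 0.66 to 0.86, Stx3 from 0.43 to 0.54, Stxbp2 from −0.35 to −0.15 and Rab27b from −0.30 to −0.26. Low signal limits Stxbp2 and the dim probe sets of Stx3 and Snap23. No paired analysis was possible because each group had 1 array, and for the same reason no replicate could be left out.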
